A study of Mus musculus with 6 samples.

Results

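The genes described here encode families of RNA-binding proteins that select splice sites or set the stability and translation of mRNA, and they were read in temporomandibular joint (TMJ) tissue of mice with and without IGF2BP2, itself an mRNA-binding protein that recognises m6A marks. Members were chosen by gene symbol: the heterogeneous nuclear ribonucleoproteins (Hnrnp genes), the serine and arginine rich splicing factors (Srsf genes) and the Pcbp, Celf, Elavl, Rbfox, Mbnl, Khdrbs, Fmr1 and Fxr, Ptbp, Ybx, Tia1 and Tial1, and Zfp36l genes. This took 68 of the 22032 genes of the table, in 13 families, with 21 hnRNP and 11 SR genes among them. They were split by what is known of their expression into 51 general members, 5 muscle-associated members (Rbfox1, Mbnl1, Mbnl2, Fxr1 and Ybx3), 11 neuron-enriched members (Elavl2, Elavl3, Elavl4, Rbfox3, Ptbp2, Celf3, Celf4, Celf5, Celf6, Khdrbs2 and Khdrbs3) and the germ cell gene Ybx2.

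Alternative splicing is set largely by the balance of proteins that bind the pre-mRNA near its exons. SR proteins bind exonic sequences and recruit the spliceosome, many hnRNPs oppose exon inclusion, and RBFOX, MBNL, CELF and PTB proteins give muscle and neurons their own splicing programmes. In the cytoplasm, ELAV proteins stabilise AU-rich mRNAs, ZFP36L proteins recruit deadenylases to the same kind of element, and YBX proteins coat mRNA. The values below are gene counts, so they show how much mRNA of each regulator was present and not how any transcript was spliced.

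Poly(A) RNA of whole TMJ tissue was sequenced from Igf2bp2-/- mice (KO) and wild-type littermates (WT), all aged 10 weeks, with 3 libraries per group. The sources used here give neither the strain and sex nor the deleted part of the gene, nor how many animals a library holds. Libraries held 28551236 to 35094127 counts, most of them on the 13 mitochondrial protein genes. The mitochondrial share was 85.3% to 86.0% in KO and 90.6% to 90.8% in WT, and the nuclear genes of a library held 4604575 to 4899680 counts in KO against 2625472 to 3205190 in WT, so the groups did not overlap in either. Counts of 0 in WT thus rest on fewer nuclear counts, and the part of this difference in the results was not tested. In the median gene, KO 1 and KO 3 differed by less than sampling noise of read pairs, with a ratio of observed to sampling variance of 0.941, as did WT 2 and WT 3 with 0.964. The mean over genes was 1.18 and 1.08, above sampling noise. Each pair was summed and counted as 1 sample, so n = 2 in KO (KO 1+3 and KO 2) and in WT (WT 1 and WT 2+3). Over the members alone the median ratio was 0.864 for KO 1 and KO 3 and 1.47 for WT 2 and WT 3. No label ties the libraries to separate animals. The p-values therefore speak only of how far these samples lie apart, a spread that may be technical. The targeted gene, Igf2bp2, kept 13, 14 and 10 counts in the KO libraries, while WT 1 to 3 had 38, 20 and 24 (log2 fold change -1.80, SE 0.39, edgeR false discovery rate (FDR) 0.00589). Of markers of the joint itself, the lubricin gene Prg4 had 46.0 CPM in KO and 11.3 in WT, while the cartilage genes Col2a1 and Acan were low, at 1.47 and 0.927 CPM in WT.

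Levels are given as CPM, each library's counts scaled to a common total with TMM factors, which correct for composition, and a log2 fold change is KO minus WT from edgeR's quasi-likelihood test. A gene was called at a Benjamini-Hochberg FDR under 0.05 over all genes tested. Because the tissue was measured in bulk, fewer cells of a type and less RNA per cell cannot be told apart.

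The families together took nearly the same share of nuclear counts in every library, from 1.24% to 1.28%. In CPM, which uses TMM factors, their sum was 1487.6 and 1487.8 in the KO samples against 1389 and 1452 in WT, a difference that was not tested. Within that sum some members were higher and others lower. Of the 64 members tested, 14 were higher and 5 lower in KO, which is 21.9% and 7.81% of them, while 9.15% of the 14632 genes tested were higher and 8.48% lower. The other 45 did not pass, 10 of them with an unadjusted p under 0.05. Too few counts to test were found for 4 members: Khdrbs2, Rbfox3, Srsf12 and the pseudogene Hnrnpa1l2-ps2, each with at most 7 counts in a library. The median log2 fold change was 0.06 over the members and -0.01 over all tested genes. Of the 14 higher members, 8 were neuron-enriched, muscle-associated or germ cell genes. The 49 tested general members had 6 higher and 4 lower, 12.2% and 8.16%, close to the share among all genes, with a median of 0.01. Called genes are also more frequent among abundant genes: of 4979 genes with a mean of at least 5 CPM, 26.8% were called in either direction, and of the 54 members above that level 25.9% were. That level was chosen after the values were seen. All KO libraries lay above all WT libraries for 21 tested members (32.8%) and below them for 9 (14.1%), while the same held for 19.1% and 19.3% of all tested genes.

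**Figure D1:**
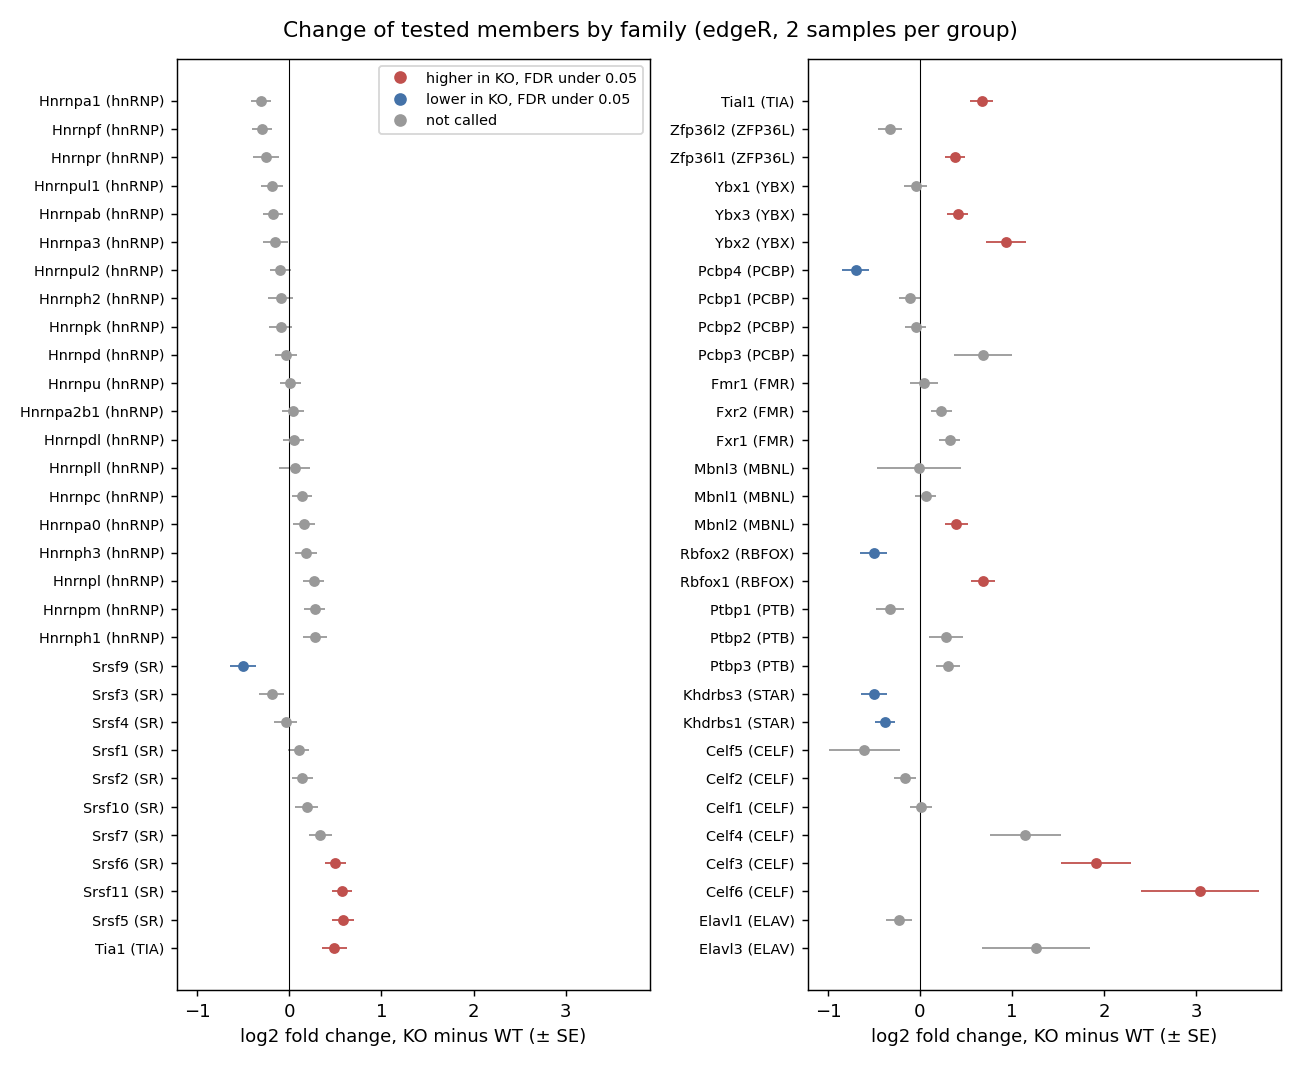
Log2 fold change (KO minus WT, x axis) with its SE for 62 tested members, grouped by family, coloured by call. The 20 hnRNP genes lie between -0.31 and 0.28, the SR genes spread from -0.51 to 0.58, and the CELF genes reach 3.04; Elavl2 and Elavl4, which had no WT count, are left out.

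The libraries without KO 2 leave KO with 1 sample, which is then assumed to vary like the WT samples. Under that setting 4 members were called higher (Elavl2, Elavl4, Celf3 and Rbfox1) and none lower by edgeR, so KO 2 bears on 15 of the 19 calls below. The number of all genes called fell as well, to 616 higher and 533 lower from 1339 and 1241.

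The hnRNPs, which package nascent transcripts and include the best-known repressors of exon inclusion, were the largest family and held no called member. Their 20 tested genes had log2 fold changes of -0.31 to 0.28, with SEs of 0.11 to 0.17, and 10 were above 0 and 10 below. The lowest FDR was 0.0792, 5 of them had an unadjusted p under 0.05, and the DESeq2 Wald test called none. With the 6 libraries as separate samples edgeR called 3 higher and 2 lower, and with the replicate block 1 higher and 2 lower. Of all tested genes 50.5% lay within the same range, and of genes with at least 5 CPM 60.6%.

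Hnrnpa2b1, a nuclear protein that has itself been described as an m6A reader, was the most abundant hnRNP. It had 89.4, 92.9 and 93.4 CPM in the KO libraries against 84.8, 96.0 and 94.4 in WT, so the groups overlapped, and its difference was 0.03 (95% interval -0.22 to 0.29). Hnrnpu, the scaffold attachment factor, averaged 50.5 ± 0.950 CPM (SD, n = 2) in KO against 50.1 ± 0.0123 in WT (0.01, 95% interval -0.23 to 0.25). These intervals rest on n = 2 per group, with a spread that may be technical. They thus do not bound a difference between genotypes, and they do not show that there was none.

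The hnRNPs nearest to a call lay on either side of 0. Hnrnpa1, which opposes SR proteins at exons, had 45.7, 42.7 and 44.3 CPM in KO and 54.5, 56.4 and 52.2 in WT, and Hnrnpf, which binds G-rich sequence, had 23.7, 22.4 and 23.0 in KO and 28.1, 27.0 and 28.8 in WT. In both genes every KO library was below every WT library. Their log2 fold changes were -0.31 (FDR 0.0792) and -0.29 (FDR 0.0844), and with 6 separate libraries they passed (FDR 0.00667 and 0.0121). Hnrnph1, a close relative of Hnrnpf, had 50.7, 44.6 and 50.3 CPM in KO and 35.2, 44.2 and 42.2 in WT, with a change of 0.28 (FDR 0.165). Hnrnpl and Hnrnpm had changes of 0.27 each (FDR 0.132 and 0.13), also with no overlap between the groups. The ratio of Hnrnph1 to Hnrnpf counts was 1.99 to 2.19 in the KO libraries and 1.25 to 1.64 in WT, a difference that was not tested. An exact permutation test of 2 samples against 2 cannot go below p = 0.333.

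SR proteins, the activators of exon inclusion, split within the family. Of 10 tested genes, Srsf5, Srsf6 and Srsf11 rose in KO, Srsf9 fell, and 6 did not pass. That is 30% higher and 10% lower, beside 9.15% and 8.48% of all tested genes. Among genes with a mean of at least 5 CPM, where all 10 tested SR genes lie, these shares were 15.2% and 11.6%. Summed over the family, the KO samples had 244 and 245 CPM and the WT samples 194 and 215.

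Srsf5 had 52.9, 47.7 and 53.8 CPM in the KO libraries, in the order KO 1, 2 and 3 as throughout, against 32.1, 36.5 and 34.7 in WT 1, 2 and 3. The lowest KO library was above the highest WT library. The log2 fold change was 0.58 (SE 0.12, edgeR FDR 0.00398), or 1.49-fold. Srsf11 had 33.2, 35.2 and 33.4 CPM in KO and 22.9, 21.7 and 24.5 in WT, and rose by 0.57 (SE 0.11, FDR 0.0027). Srsf6 had 27.1, 30.1 and 27.7 CPM in KO and 20.6, 20.4 and 19.8 in WT, and rose by 0.50 (SE 0.11, FDR 0.00694). In all 3 genes the libraries of a group lay close together and the groups were apart. Without KO 2 the FDR of Srsf5 was 0.0562, of Srsf11 0.103 and of Srsf6 0.188, with log2 fold changes of 0.66, 0.53 and 0.43.

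Srsf9, a small SR protein with a short RS domain, went the other way, with 6.06, 4.98 and 4.34 CPM in KO and 7.23, 8.04 and 6.56 in WT (-0.51, SE 0.14, FDR 0.0216). All KO libraries were below all WT libraries, though KO 1 and WT 3 were close. The call ended without KO 2, KO 3 or WT 2 (FDR 0.209, 0.0987 and 0.0639), and DESeq2's Wald test gave FDR 0.122. The founding members did not pass. Srsf1 had 27.8 ± 0.777 CPM in KO and 25.9 ± 2.1 in WT (0.10, 95% interval -0.14 to 0.35), Srsf2 31.5 ± 1.53 and 28.5 ± 2.96 (0.14, -0.11 to 0.40), and Srsf3, the smallest of the family, 26.4 ± 0.820 and 30.2 ± 5.68 (-0.19, -0.48 to 0.09). For Srsf7 the WT libraries disagreed, with 12 and 12.4 CPM in WT 1 and WT 2 and 17.5 in WT 3 against 17.0 to 17.5 in KO, and it passed only without WT 3 (FDR 0.00931) or without a filter (FDR 0.0334). Srsf4 and Srsf10 were at -0.04 and 0.19. Per kb of longest transcript, Srsf2 was the most abundant SR gene, at 16.6 CPM per kb in KO and 15.0 in WT. Srsf5 followed at 14.6 in KO and 9.75 in WT.

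**Figure D2:**
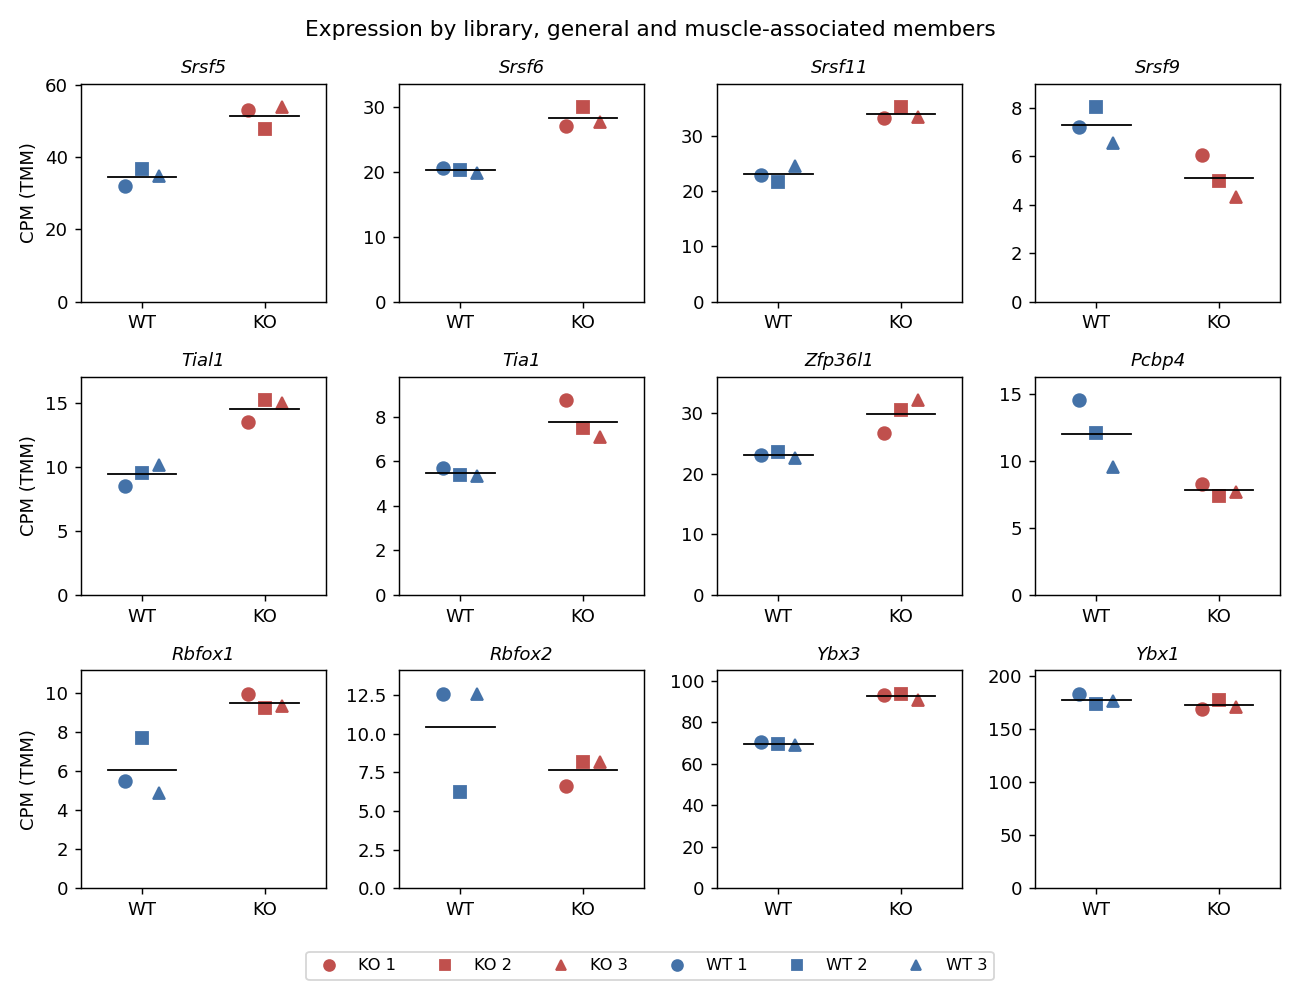
CPM (y axis, from 0) in each of the 3 WT and 3 KO libraries for 12 general and muscle-associated members, with the mean of 3 libraries as a bar. In Srsf5, Srsf6, Srsf11, Tial1, Tia1, Zfp36l1, Rbfox1 and Ybx3 all KO libraries lie above all WT libraries, in Srsf9 and Pcbp4 below them, and Rbfox2 and Ybx1 overlap.

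The sequence before the start of Srsf5 and Srsf6 is shown because these members rose together and have a single start in the table of RefSeq starts (GRCm38.p6). Srsf9, which fell, also has a single start and a GC box before it, and its sequence is not shown. The other sequence is from Celf6, a CELF gene described further on. Celf6 has 2 listed starts, and the window shown was picked because it holds a cAMP response element (CRE). Its other window holds no CRE, no GC box and 3 CpG dinucleotides. Each sequence shown is the 250 bases before the start on the plus strand, at chr12:80945249-80945498, chr2:162931258-162931507 and chr9:59578087-59578336. Capitals mark GC boxes (GGGCGG on either strand, matches that share a base counted each) and the CRE (TGACGTCA, which reads the same on both strands).
Srsf5: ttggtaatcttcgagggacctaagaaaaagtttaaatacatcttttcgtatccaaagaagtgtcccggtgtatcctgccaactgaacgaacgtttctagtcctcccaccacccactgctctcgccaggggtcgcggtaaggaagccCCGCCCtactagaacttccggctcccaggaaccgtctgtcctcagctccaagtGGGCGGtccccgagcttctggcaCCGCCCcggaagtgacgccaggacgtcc
Srsf6: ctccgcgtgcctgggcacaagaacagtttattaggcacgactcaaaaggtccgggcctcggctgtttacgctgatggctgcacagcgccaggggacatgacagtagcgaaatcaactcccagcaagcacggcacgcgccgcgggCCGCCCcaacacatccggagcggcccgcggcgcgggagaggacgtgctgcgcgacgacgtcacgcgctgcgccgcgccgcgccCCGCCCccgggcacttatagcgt
Celf6: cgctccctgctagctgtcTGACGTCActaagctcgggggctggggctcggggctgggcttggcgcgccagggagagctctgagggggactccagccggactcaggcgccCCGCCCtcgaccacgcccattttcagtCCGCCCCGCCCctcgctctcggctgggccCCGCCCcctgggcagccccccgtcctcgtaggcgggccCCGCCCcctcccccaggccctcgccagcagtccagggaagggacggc
In the windows shown, Srsf5 had 3 GC boxes, Srsf6 2 and Celf6 5, with 17, 35 and 22 CpG dinucleotides. A window was listed for 58 of the 68 members, and 43 of these had a GC box before at least 1 start, or 74.1%, beside 61.2% of 11526 tested genes and 32.7% of all 32851 windows. A CRE was found for 2 members, Celf3 and Celf6, or 3.45%, beside 2.83% of tested genes and 1.55% of all windows. The E-box CACGTG was found for 7 members, or 12.1%, beside 9.43% of tested genes and 6.02% of all windows. CCAAT was found for 53.4% of members and TATAAA for 15.5%, beside 40.1% and 8.76% of tested genes. All 14 members higher in KO had a window. A GC box was found for 10 of them, CCAAT for 7, TATAAA for 2, a CRE for 2 and the E-box for none. These differences were not tested. Genes with several starts had more windows in which to match.

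The TIA proteins, which bind U-rich sequence, help the U1 snRNP find weak 5′ splice sites and form stress granules, were higher in KO as a pair. Tial1 had 13.5, 15.2 and 14.9 CPM in the KO libraries against 8.53, 9.53 and 10.1 in WT. It rose by 0.67 (SE 0.12, FDR 0.00172), or 1.59-fold, the lowest FDR of any general member. Tia1 had 8.73, 7.49 and 7.09 CPM in KO and 5.69, 5.38 and 5.32 in WT, and rose by 0.49 (SE 0.14, FDR 0.0254). Neither gene had overlapping groups, and the counts of Tial1 were 1.5 to 2.11 times those of Tia1 across the 6 libraries with no separation by group. Without KO 2 the FDR was 0.0557 for Tial1 and 0.145 for Tia1, and Tia1 also failed without KO 1 (FDR 0.0721), while DESeq2's Wald test gave it FDR 0.129.

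ZFP36L1 and ZFP36L2 recruit the deadenylase machinery to AU-rich mRNAs. Zfp36l1 had 26.7, 30.5 and 32.1 CPM in KO and 23.0, 23.5 and 22.6 in WT and rose by 0.38 (SE 0.11, FDR 0.0278). Zfp36l2 had 10.7, 11.6 and 9.79 CPM in KO and 14.9, 11.9 and 13.1 in WT, with a change of -0.33 that did not pass (FDR 0.0999). The groups overlapped in neither gene and lay in opposite order. Zfp36l1 counts were 2.50 to 3.27 times those of Zfp36l2 in KO and 1.55 to 1.98 times in WT, which was not tested. The call of Zfp36l1 ended without KO 2 or KO 3 (FDR 0.312 and 0.0918), and DESeq2's Wald test gave FDR 0.0759, while Zfp36l2 passed as lower with 6 separate libraries (FDR 0.0315).

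Among the poly(C)-binding proteins Pcbp4 fell and the abundant members did not pass. Pcbp4, a target of p53 in other cells, had 8.29, 7.40 and 7.65 CPM in KO and 14.5, 12.1 and 9.51 in WT. Its log2 fold change was -0.70 (SE 0.15, FDR 0.00542), the largest decrease of the members called, with more spread in WT than in KO, and without KO 2 its FDR was 0.0934. Pcbp2 had 52.7 ± 2.21 CPM in KO and 54.5 ± 3.44 in WT (-0.05, 95% interval -0.30 to 0.20), and Pcbp1 16.3 ± 1.83 and 17.6 ± 0.702 (-0.11, -0.37 to 0.14). Pcbp3 had 2.08, 3.60 and 2.85 CPM in KO and 2.56, 1.57 and 1.09 in WT, so its groups overlapped through WT 1 (0.68, FDR 0.182), and it passed without WT 1 (1.19, FDR 0.0102) and without a filter (FDR 0.0133).

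KHDRBS1 (SAM68) and its neuron-enriched relative KHDRBS3 link signalling to splicing and were both lower in KO. Khdrbs1 had 13.2, 12 and 12.3 CPM in KO and 16.7, 14.8 and 16.5 in WT (-0.38, SE 0.11, FDR 0.0317). Khdrbs3 had 5.37, 5.00 and 4.85 CPM in KO and 7.5, 7.12 and 6.64 in WT (-0.50, SE 0.14, FDR 0.0247). No KO library reached a WT library in either gene. These calls were among the less stable: Khdrbs1 failed on leaving out any of KO 2, KO 3, WT 1 and WT 3 in turn (FDR 0.338, 0.0553, 0.0811 and 0.0684), Khdrbs3 without KO 2 or WT 1 (FDR 0.206 and 0.0825). DESeq2's Wald test gave them FDR 0.158 and 0.133. Khdrbs3 was thus the neuron-enriched member that fell. In the same samples all 9 Schwann cell markers were lower, with 483 and 496 CPM in all in KO against 1427 and 1462 in WT. Macrophage markers were lower as well, 7 of 10 by the test and all 10 below 0, with 61.3 and 62.1 CPM in all in KO against 97.5 and 117 in WT. Of all tested genes 8.48% were lower. The part of either cell type in the 2 Khdrbs genes was not tested.

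The muscle-associated members were higher in KO or did not pass. Of 5 members 3 were called (Rbfox1, Mbnl2 and Ybx3), while of all tested genes 9.15% were higher and 8.48% lower. Among genes with a mean of at least 5 CPM these shares were 15.2% and 11.6%. The median log2 fold change of the 5 muscle-associated members was 0.40. Skeletal muscle markers moved with them: 9 of 24 were higher and none lower, among them Myh2, Ttn, Des and Ryr1 at 1.55, 0.96, 0.71 and 0.73. The log2 fold change was above 0 for 16 of the 24 and below 0 for 8. The latter included the slow-fibre genes Myl2, Myh7 and Myl3 at -0.81, -0.63 and -0.60 (FDR 0.289, 0.154 and 0.311), each under 2 CPM, and the abundant Myh4 at -0.03 (FDR 0.933). Ckm, with the highest mean CPM over both groups, averaged 1178 ± 171 CPM in KO against 856 ± 238 in WT (FDR 0.137), and no marker was at 0. Summed over the 24, KO had 9173 and 10459 CPM against 5973 and 8072 in WT. The part of muscle content in these members was not tested.

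RBFOX proteins bind the motif UGCAUG and direct exons of muscle and brain. Rbfox1, the paralog of muscle and neurons, had 9.99, 9.25 and 9.36 CPM in the KO libraries against 5.52, 7.74 and 4.89 in WT. It rose by 0.68 (SE 0.13, FDR 0.00289) and passed under each of the 13 alternative settings, at FDRs of up to 0.041. Rbfox2, the broadly expressed paralog, had 6.60, 8.16 and 8.15 CPM in KO and 12.6, 6.21 and 12.5 in WT. WT 2 thus lay below every KO library and at about the level of KO 1, although WT 2 and WT 3 were counted as 1 sample. The summed samples gave a decrease (-0.50, SE 0.15, FDR 0.0293), but with 6 separate libraries the FDR was 0.317, without WT 3 0.63, without WT 1 0.173, without KO 1 0.0628, without KO 2 0.138 and by DESeq2's Wald test 0.107. Rbfox1 counts were 1.13 to 1.51 times those of Rbfox2 in KO, 0.439 and 0.390 times in WT 1 and WT 3, and 1.25 times in WT 2, so this ratio did not separate the groups. Rbfox3, the neuronal NeuN gene, had 5 to 7 counts in the KO libraries and 2 to 6 in WT and was not tested.

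MBNL proteins promote the adult splicing pattern of muscle and are sequestered by repeat RNA in myotonic dystrophy. Mbnl2 had 22.8, 25.2 and 23.3 CPM in KO and 16.5, 20.8 and 19.3 in WT (0.40, SE 0.12, FDR 0.0404). Its call ended on leaving out any of KO 2, WT 1 and WT 3 (FDR 0.37, 0.139 and 0.0744), and DESeq2's Wald test gave FDR 0.109. Mbnl1, the main muscle member, averaged 28.5 ± 0.296 CPM in KO against 27.2 ± 2.87 in WT (0.06, 95% interval -0.19 to 0.31), and Mbnl3 had 8 to 19 counts in a library. The ratio of Mbnl2 to Mbnl1 counts was 0.759 to 0.894 in KO and 0.657 to 0.695 in WT.

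The cold shock domain proteins of the YBX family bind and package mRNA, and Ybx1 was the most abundant of all members. Per kb of transcript it had 107 CPM in KO and 111 in WT, followed by Ybx3 at 50.4 and 37.9 and by Hnrnpa2b1 at 25.4 and 24.8. Ybx1 had 169, 178 and 171 CPM in KO and 184, 174 and 176 in WT, with overlapping groups and a difference of -0.04 (95% interval -0.31 to 0.23). Ybx3, which is strongly expressed in muscle and heart, had 93.3, 93.8 and 90.9 CPM in KO and 70.4, 69.5 and 69.3 in WT and rose by 0.41 (SE 0.11, FDR 0.0237). The spread within a group was small beside the distance between groups, but without KO 2 the FDR was 0.317 at a change of 0.40. The ratio of Ybx3 to Ybx1 counts was 0.528 to 0.550 in KO and 0.384 to 0.399 in WT. Ybx2, the germ cell member, had 2.85, 2.68 and 2.15 CPM in KO and 1.47, 1.35 and 1.16 in WT (0.94, SE 0.22, FDR 0.0087), and it failed without KO 2 (FDR 0.087), with FDR 0.0504 by DESeq2's Wald test.

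Fragile X family proteins bind mRNA and regulate its translation, and FXR1 is the member needed by striated muscle. Fxr1 had 24.8, 22.1 and 25.2 CPM in KO and 18.4, 20.1 and 18.7 in WT, with no overlap and a change of 0.32 that did not pass (FDR 0.0712), while it passed with 6 separate libraries (FDR 0.00624), with the replicate block (FDR 0.0293) and without a filter (FDR 0.0398). Fxr2 was at 0.23 (FDR 0.2) and Fmr1, with 5.78 ± 0.830 CPM in KO and 5.63 ± 0.0718 in WT, at 0.05 (FDR 0.878).

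**Figure D3:**
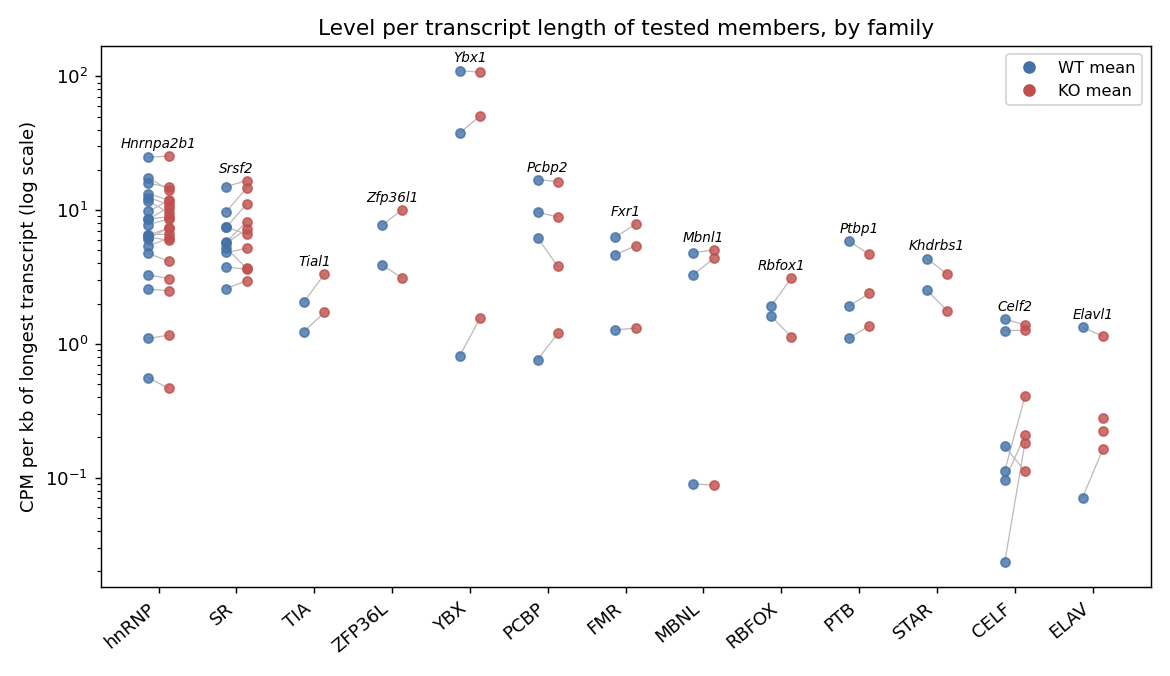
CPM per kb of the longest transcript (y axis, log scale) of the tested members by family, as group means, with a line joining WT to KO for each gene and the most abundant member named. Ybx1 lies highest at 111 in WT, most hnRNP and SR genes lie between 2 and 20, and the lowest points, under 0.3 in WT, belong to CELF, ELAV and Mbnl3. Elavl2 and Elavl4 show no WT point because they had no WT count.

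The largest changes of all members were found among neuron-enriched ELAV and CELF genes, which were also at low levels. Khdrbs3 and Ptbp2 had higher levels, 5.08 and 5.54 CPM in KO, and changed less, by -0.50 and 0.28. Of the 11 neuron-enriched members, 9 were tested: 4 rose (Elavl2, Elavl4, Celf3 and Celf6) and Khdrbs3 fell. That is 44.4% and 11.1%, beside 9.15% and 8.48% of all tested genes. Celf4, Elavl3, Celf5 and Ptbp2 did not pass. Elavl2 and Elavl4, with no WT count, and Celf6, with at most 3 in a WT library, passed the filter on low counts through the KO libraries alone, so the number of genes that rose is no support for a shift of the group as a whole.

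ELAV proteins bind AU-rich mRNA, and Elavl2, Elavl3 and Elavl4 encode the Hu proteins used as markers of neurons. In the KO libraries Elavl2 had 38, 40 and 33 counts and Elavl4 had 59, 31 and 64, and neither had a count in any WT library. With WT set at 3 counts in all, the fold was 23.9 for Elavl2 and 33.2 for Elavl4. These are not strict bounds, because a pair of reads probably adds 2 counts. Both passed (FDR 7.7e-05 and 0.000295) and were called under each of the 12 settings that tested them. Elavl3 had 17, 47 and 23 counts in KO and 16, 5 and 3 in WT, so the groups overlapped at WT 1 (1.26, SE 0.59, FDR 0.18), and it passed without WT 1 (2.24, FDR 0.0318) and without a filter (FDR 0.039). The ubiquitous Elavl1, the gene of HuR, had 6.21, 6.92 and 6.08 CPM in KO and 7.16, 8.09 and 8.03 in WT, with a change of -0.23 that did not pass (95% interval -0.53 to 0.07). The neuronal genes thus made up 28.8% to 33.2% of all ELAV counts in the KO libraries and 1.43% to 7.08% in WT.

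CELF proteins bind GU-rich sequence, and Celf3 to Celf6 are expressed mainly in the nervous system. Celf3 had 62, 44 and 69 counts in KO and 13, 4 and 11 in WT, and rose by 1.92 (SE 0.38, FDR 0.0031), or 3.77-fold. Celf6 had 23, 25 and 18 counts in KO and 3, 0 and 2 in WT and rose by 3.04 (SE 0.64, FDR 0.0048), a size that rests on 5 WT counts. Its call ended without KO 2 (FDR 0.0699). Celf4 had 28, 32 and 42 counts in KO and 12, 6 and 11 in WT (1.14, SE 0.39, FDR 0.06). Its groups did not overlap, and it passed with 6 separate libraries, with the replicate block and without a filter. Celf5 did not follow, with 0.492 ± 0.0445 CPM in KO and 0.751 ± 0.0986 in WT (-0.61, SE 0.38, FDR 0.322). The broadly expressed Celf1 and Celf2 were at 0.01 and -0.16 (FDR 0.969 and 0.414), with 9.96 ± 0.0155 and 12.3 ± 1.26 CPM in KO.

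**Figure D4:**
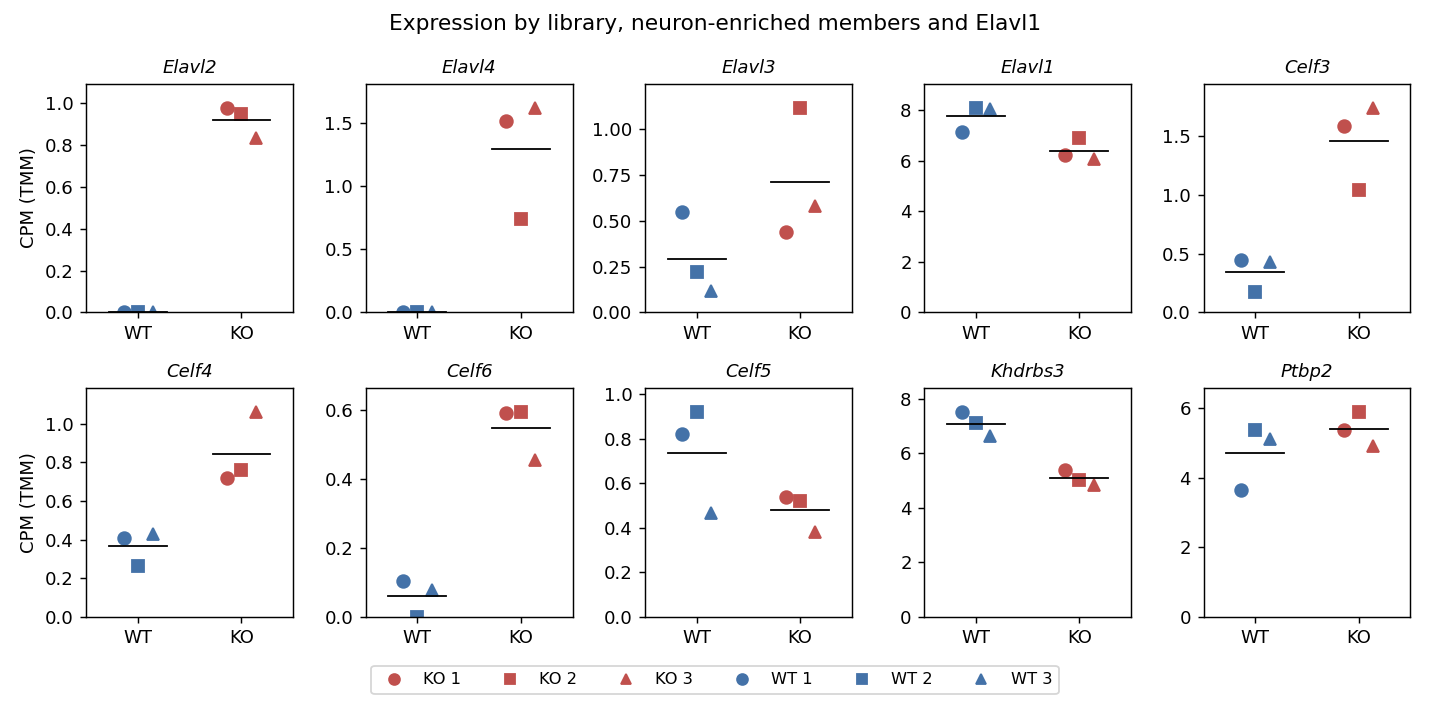
CPM (y axis, from 0) in each WT and KO library for 9 tested neuron-enriched members and Elavl1, with the mean of 3 libraries as a bar. Elavl2 and Elavl4 sit at 0 in all WT libraries, Celf3, Celf4 and Celf6 are above WT in all KO libraries, Khdrbs3 and Elavl1 are below, and Elavl3, Celf5 and Ptbp2 overlap.

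PTB proteins bind pyrimidine tracts, and neurons replace PTBP1 by PTBP2. Ptbp2 had 5.37, 5.88 and 4.92 CPM in KO and 3.65, 5.38 and 5.12 in WT, with overlapping groups (0.28, FDR 0.329). Ptbp1 had 13.6, 15.9 and 13.5 CPM in KO and 21.6, 16.4 and 14.7 in WT (-0.33, FDR 0.19), and Ptbp3, the form of blood cells, had 16.3 ± 0.118 and 13.2 ± 2.45 (0.30, FDR 0.139). Most of the spread in WT came from WT 1. The ratio of Ptbp2 to Ptbp1 counts was 0.364 to 0.395 in KO, 0.169 in WT 1, and 0.328 and 0.347 in WT 2 and WT 3.

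Neuron markers were also higher in the KO samples. Of 15 markers, all 14 tested were higher, among them Prph, Dbh, Snap25 and Chrna3, with Prph at 5.75 ± 0.254 CPM in KO and 0.398 ± 0.0795 in WT, and Stmn2, the most abundant, at 9.75 ± 1.16 and 2.60 ± 0.822. Summed, KO had 49.1 and 55.0 CPM against 8.04 and 10.1 in WT, and Dbh and Chrna3 had no count in WT. Salivary gland markers rose too, 10 of 11 tested, while 9.15% of all tested genes were higher. The part of nervous tissue in the changes of the ELAV and CELF genes was not tested.

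Other genes of the splicing and mRNA decay machinery, from lists drawn up by function, were read in the same fit. Of all tested genes 9.15% were higher and 8.48% lower, and of genes with a mean of at least 5 CPM 15.2% and 11.6%. Of 41 core spliceosome genes 3 were higher and 1 lower, or 7.32% and 2.44%, with a median of -0.01. These were Sf3b1 at 0.60 (FDR 0.00254), which recognises the branch site, Snrnp70 at 0.56 (FDR 0.00579) of the U1 particle, Sf1 at 0.35 (FDR 0.0484) and Prpf19 at -0.42 (FDR 0.0289). Of 16 kinases and partners of SR proteins 5 (31.25%) were higher and none lower by edgeR, with a median of 0.22. The kinases Clk4, Clk1 and Clk3, which phosphorylate SR proteins, rose by 0.80, 0.64 and 0.56 (FDR 0.000404, 0.00375 and 0.00642), and the partners Srrm2 and Tra2a by 0.43 and 0.39 (FDR 0.0307 and 0.0345). Clk1 had 67.6 ± 1.27 CPM in KO and 43.4 ± 7.18 in WT. Among 23 tested splicing regulators of other families 4 were higher and 2 lower, or 17.4% and 8.70%, with a median of 0.20. Rbm39, a U2AF-related factor, rose by 0.68 (FDR 0.000822), Rbm5 by 0.47 (FDR 0.00895), and the muscle splicing factors Rbm24 and Rbm38 by 0.70 and 0.58 (FDR 0.00289 and 0.0109), while Pspc1, a paraspeckle protein, was lower (-0.91, FDR 0.0239). Of 35 decay and stability factors 5 were higher and 1 lower, or 14.3% and 2.86%, with a median of 0.03. The lower gene was Rbm3, a cold-induced RNA-binding protein, with 17.6 ± 1.5 CPM in KO and 30.5 ± 1.5 in WT (-0.79, FDR 0.000305), while the deadenylase genes Pan2 and Pan3 and the antiproliferative Btg2 rose by 0.53, 0.49 and 0.51 (FDR 0.00706, 0.0112 and 0.00796).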

How the data were processed

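Poly(A) RNA was sequenced from 6 libraries of mouse temporomandibular joint tissue, 3 KO and 3 WT, with groups and replicate numbers taken from the sample titles. The authors deposited 1 table of raw counts per gene symbol. HISAT2 2.1.0, StringTie 2.1.5 and mm39 are named in the submitters' processing notes, without their roles. The annotation, the strand setting and the handling of shared reads were not given in the sources used here, so genes with near-identical copies (Hnrnpa1, Hnrnpa3) or antisense partners are uncertain. In each library genes at 2 counts were 4.69 to 5.06 times as many as genes at 1 count, so a read pair appears to give 2 counts.

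Library pairs with a median ratio of observed to sampling variance under 1.1 (nuclear genes of at least 20 summed counts) were summed. Counts were tested with edgeR 4.0.16 (limma 3.58.1, R 4.3.3): filterByExpr at a minimum count of 10, TMM, robust quasi-likelihood fit, group as the term, FDR 0.05. SE is the absolute log2 fold change over the square root of F. CPM by library uses TMM factors of 6 libraries, and mean ± SD those of the summed samples (n = 2 per group). The script was tested on simulated data. Lengths are of the longest GENCODE M21 transcript per symbol, found for all 68 members. Promoter windows and their coordinates are of RefSeq, GRCm38.p6, and were matched by symbol only. DESeq2 1.42.0 and other settings were alternatives. The members and lists were chosen with earlier results of these data known. TMM is the trimmed mean of M-values. Genes are named by rule: each muscle-associated, neuron-enriched and germ cell member, each called member, the most abundant of each family, and up to 4 genes of smallest p from other lists. The remaining members, Prg4, Col2a1, Acan, Tra2a, Pspc1, Myl2, Myh7, Myl3 and Myh4 were named after their values were seen. Some genes of the other lists are not reported here by name. The floor of 3 counts covers counting error only, and no molecular identifiers are named in the labels. Intervals of fold changes are 95% intervals from the SE and the test's degrees of freedom. Same-numbered libraries did not pair the groups (correlations of deviations -0.112, -0.141 and 0.0826). The largest correlation between a KO and a WT library was 0.225, for KO 2 and WT 1, which were not summed with another library. The replicate block goes by replicate number and does not cover that pair.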

Additional observations from a re-analysis of the deposited data

How the results depend on the processing

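Of 824 comparisons of a tested member with 1 of 13 alternative settings, 734 kept the direction and the side of the threshold, 38 lost a call, 21 gained a call and 31 changed sign without a call. Of the 19 calls, 4 (Elavl2, Elavl4, Celf3 and Rbfox1) held under every setting that tested them, and 7 were lost only without KO 2. Leaving out 1 library in turn gave 4 to 15 members higher and 0 to 4 lower, 0 to 7 general members higher and 0 to 3 lower, 1 to 3 muscle-associated members higher, 3 to 5 neuron-enriched members higher and 0 to 1 lower, and 616 to 1348 of all genes higher and 533 to 1187 lower. The DESeq2 Wald test called 1 member lower (1 general, 0 neuron-enriched) and 738 of all genes lower. With at least 50 counts in 3 libraries 0 neuron-enriched members were called higher, since only 2 were then tested. The replicate block, with 6 separate libraries, called 17 members higher and 6 lower, and ended no call other than that of Rbfox2 (FDR 0.317). DESeq2 size factors, and library sizes without mitochondrial, muscle and erythroid genes, each gave 14 members higher and 5 lower, and no scaling moved the median of all genes by as much as 0.1. Per kb and per CPM the same member led in 11 of 13 families, with Srsf5 in place of Srsf2 and Rbfox2 in place of Rbfox1 by CPM. Members near 0 that passed under no setting changed sign. Without 1 library the log2 fold changes ranged from -0.0594 to 0.0707 for Celf1, -0.0404 to 0.18 for Fmr1, -0.0336 to 0.0492 for Hnrnpa2b1, -0.138 to 0.0172 for Hnrnpd, -0.00095 to 0.115 for Hnrnpdl, -0.0936 to 0.14 for Hnrnpll, -0.0098 to 0.026 for Hnrnpu, -0.0272 to 0.114 for Mbnl1, -0.169 to 0.108 for Mbnl3, -0.0898 to 0.0286 for Pcbp2, -0.0711 to 0.0795 for Srsf4 and -0.0713 to 0.0012 for Ybx1. With 6 separate libraries Celf1 was at -0.016, Hnrnpll at -0.017 and Mbnl3 at 0.013, and with the replicate block these were at -0.015, -0.025 and 0.015 and Srsf4 at 0.0013. With at least 50 counts Celf1 was at -0.0041 and Hnrnpu at -0.0038, and without a filter Mbnl3 was at 0.0076. The cause of these shifts was not tested. Among tested members, depth limits the neuron-enriched ELAV and CELF genes and Mbnl3 most, with at most 69 and 19 counts in a library.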
